A study of Mus musculus with 13 samples.

Results

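The 9 genes examined encode transporters of glucose and related sugars, in liver RNA of obese mice, and are 9 of the 22180 genes that the arrays measured with a single gene symbol. They comprised the sodium-coupled transporters Slc5a1 (SGLT1) and Slc5a2 (SGLT2) and the facilitative transporters Slc2a1 (GLUT1), Slc2a2 (GLUT2), Slc2a3 (GLUT3), Slc2a4 (GLUT4), Slc2a5 (GLUT5), Slc2a8 (GLUT8) and Slc2a9 (GLUT9). Each gene was taken by its symbol, and where a gene had several probe sets, the one with the highest mean over the 13 arrays was used. Genes with dim signals were kept.

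All mice were male C57Bl/6J that began a diet with 60% fat at 6 weeks of age and ate it freely for 4 weeks to become obese. Over the next 4 weeks the diet simply went on in the HFD group (4 arrays), canagliflozin at 25 to 30 mg/kg was added to it in CANA (4 arrays), and calories were restricted by 15 to 30% in CR (5 arrays), so that body weight matched CANA. All 3 groups had therefore been made obese, and no lean group is part of the comparisons. The labels do not say that every array had its own mouse, so a p-value reflects only how far these samples spread, and that spread may be technical. Values are log2 expression values of arrays, which carry no read depth, and precision is limited by how many arrays there are.

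SGLT proteins carry glucose into cells together with sodium, against its gradient, in the kidney tubule and the intestine. GLUT proteins let hexoses pass along their gradient, and GLUT2 is the main route by which hepatocytes take up glucose after a meal and a route by which they release it in fasting. Canagliflozin blocks SGLT2 in the kidney and so causes glucose to be lost in urine. The comparisons ask whether RNA of the drug's target family and of the liver's own sugar transporters differed with the drug or with weight matching.

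The arrays were alike as a whole, with correlations of 0.986 to 0.992 between any pair across genes. Hepatocyte markers were bright in every group, and their summed level lay between 15.86 and 16.02 (log2) on all arrays. Each array's label carried a pair of bracketed numbers whose meaning is not stated. The first, which runs upward over the arrays and is called the serial number here, was examined and the other was not. With group in the limma model, 44 of 22180 genes (0.198%) followed the serial number, and none of the 9 transporters was among them (adjusted p of 0.568 to 0.969). At so low a share this says little about the transporters. The slope was common to all groups, so it cannot show trends that differ between groups, which are described further below. Every group had arrays among both serial numbers 1 to 8 and 9 to 14. In bulk liver, fewer cells of a type and less RNA per cell cannot be told apart.

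No transporter gene passed the test in any comparison. At a Benjamini-Hochberg adjusted p under 0.05 in limma over all genes, 0 of 9 passed in CANA against HFD, where 0.0541% of all genes did. In CR against HFD 0 of 9 passed and so did 0% of all genes, and in CANA against CR 0 of 9 passed against 0.0721%. At an unadjusted p under 0.05 the counts were also 0 of 9 in each comparison, against 7.44, 4.14 and 7.02% of all genes. For no transporter were the arrays of a pair of groups fully apart, where 4.32, 1.4 and 2.36% of all genes had groups that did not overlap. All 27 differences had 95% intervals, each taken on its own, that lay between 0.616-fold and 1.55-fold, so a 2-fold change on the array scale was outside every one of them. Array values understate changes of dim genes.

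**Figure D1:**
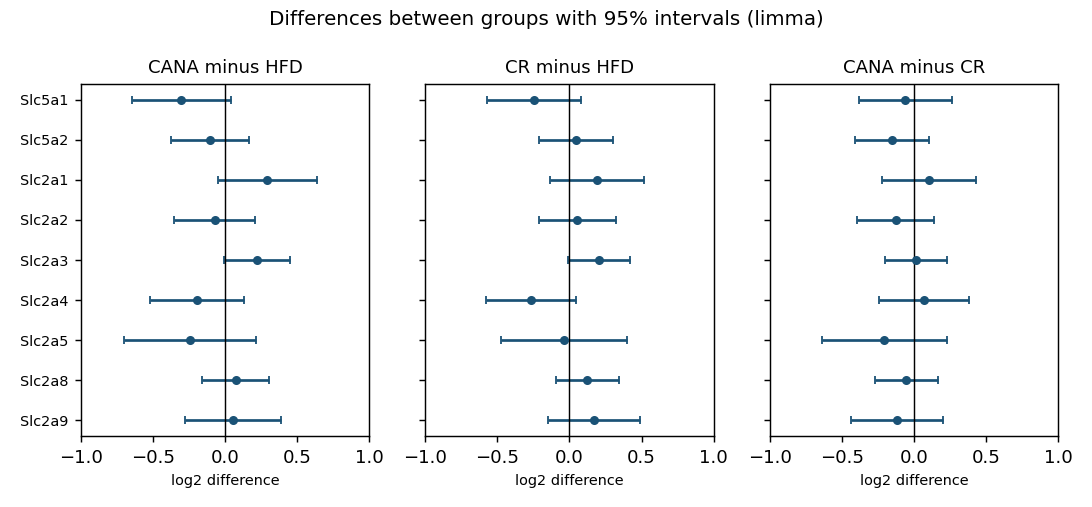
Differences between groups on the log2 scale (x axis) for the 9 transporter genes (y axis), with points for the limma estimates and bars for their 95% intervals. Every bar crosses 0, and the widest interval is that of Slc2a5.

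The level of each gene was first set against the whole distribution, because several of these transporters are known from other tissues. A position in this distribution is a property of a probe set as well as of its RNA, so levels of different genes are not a ratio of their transcripts. The median gene had a mean of 4.48, and 40% of genes were below 3.95, which is the limit under which a gene is called dim here. Olfactory receptor genes, which have their known role in the nose, served as a reference for unexpressed genes. Their 1088 means had a median of 2.60 and a 95th percentile of 4.27. The dim limit lies below that percentile, so a gene above the limit is not thereby shown to be expressed.

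**Figure D2:**
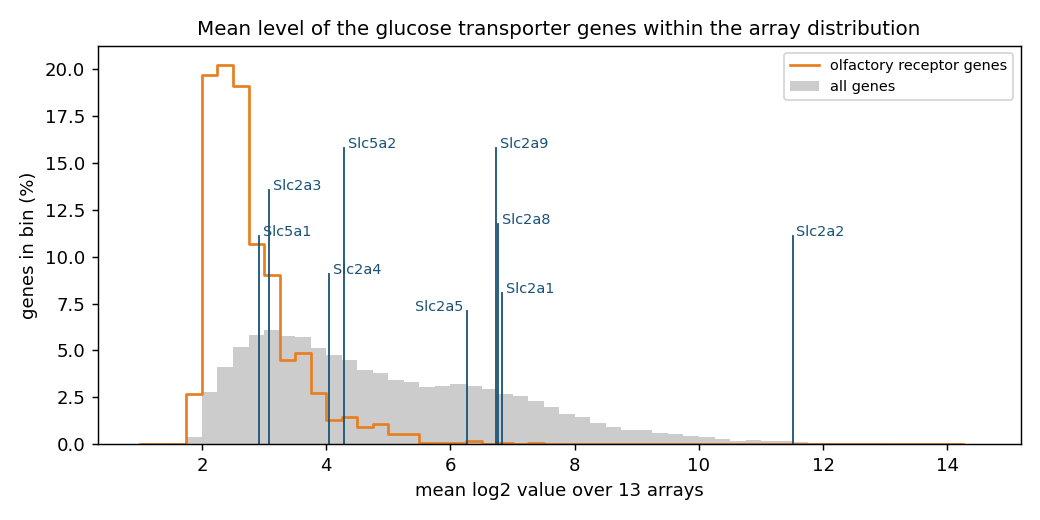
Share of genes in bins of the mean log2 value over 13 arrays (x axis, bins of 0.25), with grey bars for all 22180 genes, an orange line for 1088 olfactory receptor genes and blue lines at the means of the 9 transporters. Slc2a2 sits at 11.51 in the far right tail, 4 genes lie between 6.26 and 6.83, and the other 4 lie between 2.92 and 4.29, where olfactory receptor genes also lie.

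The sodium-coupled transporters gave low signals. Slc5a2, the gene of the drug's target, had a mean of 4.29, a little over the dim limit, above 46.5% of all genes and above 95.04% of the olfactory receptor genes. In HFD it read 4.22, 4.20, 4.31 and 4.47, in CANA 4.39, 4.35, 4.04 and 4.01, and in CR 4.41, 4.52, 3.99, 4.41 and 4.42 (replicates 1 upward). The groups overlapped, with means of 4.35 ± 0.21 in CR, 4.30 ± 0.12 in HFD and 4.20 ± 0.20 in CANA (SD, n = 5, 4 and 4), and no neighbours in that order differed beyond their spread. The CANA minus HFD difference was -0.10 (SE 0.13, 95% interval -0.37 to 0.17, limma adjusted p = 0.916). Within serial numbers 1 to 8 it was 0.16 and within 9 to 14 it was -0.37.

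Slc5a1, the intestinal glucose transporter that also works in the late kidney tubule, was below the dim limit, with a mean of 2.92 above 16.4% of all genes and 69.7% of the olfactory receptor genes. It read 2.93, 3.15, 3.16 and 3.21 in HFD, 3.16, 2.44, 2.62 and 3.01 in CANA, and 3.15, 2.46, 2.74, 3.02 and 2.96 in CR. The HFD arrays lay together, while both other groups spread lower and overlapped them. The means were 3.11 ± 0.13, 2.81 ± 0.33 and 2.87 ± 0.27 (SD, n = 4, 4 and 5). CANA was at -0.30 against HFD (SE 0.16, interval -0.65 to 0.04, adjusted p = 0.708) and CR at -0.25 (SE 0.15, interval -0.57 to 0.08, adjusted p = 0.999).

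Markers of the tissues in which these genes are best known were partly dim. Of 6 markers of the kidney proximal tubule, Lrp2, Cubn and Kap were below the dim limit and Slc34a1, Slc22a6 and Slc22a8 were above it at 4.39, 4.54 and 4.03. The summed level of all 6 was 6.38 to 6.55 in HFD, 6.40 to 6.56 in CANA and 6.36 to 6.62 in CR. Of 5 enterocyte markers, Vil1, Lct and Sis were below the dim limit at 3.52, 3.67 and 2.93. Alpi was above it at 4.09 and Fabp2 was bright at 9.44. The summed level of all 5 was 9.30 to 10.22, 9.38 to 9.77 and 8.97 to 9.69 in the same order, most of it Fabp2. That sum mainly follows Fabp2 and is no measure of the enterocyte markers as a set. The part of either tissue in the values of Slc5a1 and Slc5a2 was not tested. Pdzk1ip1, the small membrane protein that activates SGLT2, had a mean of 5.25 ± 0.29 for HFD, 5.06 ± 0.25 for CANA and 5.24 ± 0.18 for CR (SD, n = 4, 4 and 5), with a CANA minus HFD difference of -0.20 (adjusted p = 0.832).

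**Figure D3:**
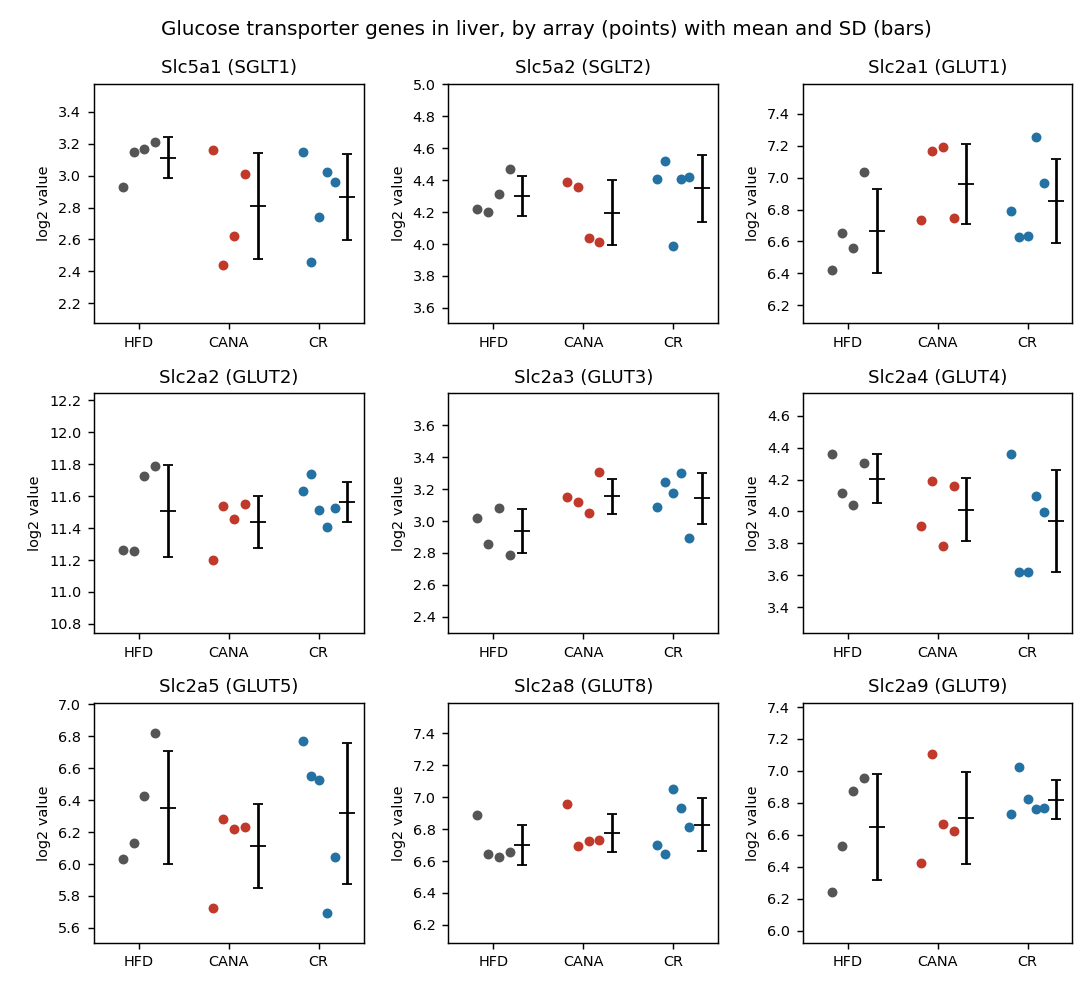
Log2 values of the 9 transporter genes by group, 1 point per array in replicate order, with the group mean and SD as black bars to the right of the points. All panels span the same 1.5 log2 units around each gene's own range, and in every panel the 3 groups overlap.

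Slc2a2, the liver's glucose transporter, was among the brightest genes, with a mean of 11.51 above 99.4% of all genes and above all 1088 olfactory receptor genes. In HFD it read 11.26, 11.26, 11.73 and 11.79, in CANA 11.20, 11.54, 11.45 and 11.55, and in CR 11.63, 11.74, 11.51, 11.41 and 11.53. The HFD arrays alone spanned 11.26 to 11.79, and all arrays of CR and all but CANA replicate 1 fell inside that span. The order was CR at 11.56 ± 0.13, HFD at 11.51 ± 0.29 and CANA at 11.44 ± 0.16 (SD, n = 5, 4 and 4), and neither neighbours nor ends of it differed beyond the spread. CANA minus HFD was -0.07 (SE 0.13, interval -0.35 to 0.21, adjusted p = 0.954), or 0.951-fold with an interval of 0.783 to 1.16. CR minus HFD was 0.05 (SE 0.13, interval -0.21 to 0.32, adjusted p = 0.999), and CANA minus CR was -0.13 (SE 0.13, interval -0.39 to 0.14, adjusted p = 0.884). The sign of CANA minus HFD depended on single arrays, being 0.0069 without CANA replicate 1, 0.0008 without HFD replicate 3 and 0.021 without HFD replicate 4.

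Slc2a1, the broadly expressed basal glucose transporter, had a mean of 6.83 and read higher on average in CANA. It read 6.42, 6.65, 6.56 and 7.03 in HFD, 6.74, 7.17, 7.19 and 6.75 in CANA, and 6.79, 6.63, 6.63, 7.26 and 6.97 in CR. HFD replicate 4 lay above CANA replicates 1 and 4, so the groups overlapped. The means were 6.67 ± 0.26, 6.96 ± 0.25 and 6.86 ± 0.26 (SD, n = 4, 4 and 5). CANA minus HFD was 0.29 (SE 0.16, interval -0.05 to 0.64, adjusted p = 0.725). Slc2a1 was the 1 transporter with a second probe set, which was near the dim limit (HFD 4.00 ± 0.03, CANA 3.94 ± 0.15 and CR 4.03 ± 0.11) and did not follow the first over the 13 arrays (r of 0.07). With the mean of both probe sets CANA minus HFD was 0.12.

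Slc2a3, the neuronal glucose transporter that leukocytes also carry, was dim with a mean of 3.08. That was above 20.3% of all genes and 75% of the olfactory receptor genes. It read 3.02, 2.86, 3.08 and 2.79 in HFD, 3.15, 3.12, 3.05 and 3.31 in CANA, and 3.09, 3.24, 3.18, 3.30 and 2.89 in CR. CANA replicate 3 lay just below HFD replicate 3, the only place where those groups met. The means were 2.94 ± 0.14, 3.16 ± 0.11 and 3.14 ± 0.16 (SD, n = 4, 4 and 5), with CANA minus HFD at 0.22 (SE 0.11, interval -0.01 to 0.45, unadjusted p = 0.0601, adjusted p = 0.686 in limma) and CR minus HFD at 0.20 (SE 0.10, interval -0.01 to 0.42, adjusted p = 0.999). Among the 9 transporters and 3 comparisons this was the smallest unadjusted p. All 6 neutrophil markers were dim as well, with summed levels of 5.46 to 5.67 in HFD, 5.64 to 5.69 in CANA and 5.58 to 5.65 in CR. Macrophage markers, all 6 above the dim limit, summed to 9.21 to 10.01, 9.47 to 9.96 and 8.96 to 9.89, and the part of either cell type in Slc2a3 was not tested.

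Slc2a4, the insulin-regulated transporter of fat and muscle, stood at 4.04, near the dim limit. That was above 41.8% of all genes and 93.75% of the olfactory receptor genes. It read 4.36, 4.11, 4.04 and 4.31 in HFD, 3.91, 4.19, 3.78 and 4.16 in CANA, and 4.36, 3.62, 3.62, 4.10 and 4.00 in CR. The CR arrays held both the highest and the lowest values. The means were 4.21 ± 0.15, 4.01 ± 0.20 and 3.94 ± 0.32 (SD, n = 4, 4 and 5), with CANA minus HFD at -0.19 (SE 0.15, adjusted p = 0.839) and CR minus HFD at -0.27 (SE 0.15, adjusted p = 0.999). Of 5 measured adipocyte markers, Adipoq and Lep were dim and Plin1, Retn and Fabp4 were above the dim limit at 4.55, 4.43 and 5.74. Fabp4, which had the lowest p of the 5 in CANA minus HFD, was at 6.21 ± 0.42 in CANA and 5.53 ± 0.38 in HFD (difference 0.68, SE 0.20, unadjusted p = 0.00312, adjusted p = 0.325 in limma). The 5 did not move together: 4 were above 0 and 1 below (Lep, at -0.36), with a median difference of 0.01. The summed level of the 5, of which Fabp4 was the brightest, was 6.61 to 6.95 in HFD, 6.81 to 7.36 in CANA and 6.62 to 6.83 in CR. Of 5 muscle markers, Ckm and Myh4 were dim and Acta1, Mb and Tnnt3 above the limit, and all 5 summed to 6.58 to 6.83, 6.66 to 6.71 and 6.68 to 6.88. The part of either cell type in Slc2a4 was not tested.

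Slc2a5, the fructose transporter of the intestine, had a mean of 6.26 and varied more between arrays than the other transporters. Its SD within groups was 0.37, larger than that of 96.7% of all genes. It read 6.03, 6.13, 6.42 and 6.82 in HFD, 5.72, 6.28, 6.22 and 6.23 in CANA, and 6.77, 6.55, 6.53, 5.69 and 6.04 in CR. CANA replicate 1 was apart from the rest of its group, and CR fell into higher and lower arrays. The means were 6.35 ± 0.35, 6.11 ± 0.26 and 6.32 ± 0.44 (SD, n = 4, 4 and 5), with CANA minus HFD at -0.24 (SE 0.22, interval -0.70 to 0.22, adjusted p = 0.863) and CR minus HFD at -0.04 (SE 0.21, interval -0.47 to 0.40, adjusted p = 0.999). CR minus HFD was 0.53 within serial numbers 1 to 8 and -0.76 within 9 to 14, on either side of the pooled value. CANA minus HFD was -0.11 without CANA replicate 1 and -0.08 without HFD replicate 4.

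Slc2a8, an intracellular hexose transporter, was the steadiest of the bright members, with a mean of 6.77 and a range of 0.43 over all arrays. It read 6.89, 6.64, 6.62 and 6.66 in HFD, 6.95, 6.70, 6.72 and 6.73 in CANA, and 6.70, 6.64, 7.05, 6.93 and 6.81 in CR. Replicate 1 was the highest array of both HFD and CANA. The means were 6.70 ± 0.13, 6.78 ± 0.12 and 6.83 ± 0.17 (SD, n = 4, 4 and 5), and the largest difference was CR minus HFD at 0.12 (SE 0.10, interval -0.09 to 0.34, adjusted p = 0.999).

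Slc2a9, which in spite of its family carries urate into hepatocytes, had a mean of 6.73. It read 6.24, 6.53, 6.87 and 6.96 in HFD, 6.42, 7.11, 6.67 and 6.62 in CANA, and 6.73, 7.03, 6.82, 6.76 and 6.77 in CR. HFD and CANA were wide and CR was narrow, all of it within the span of CANA. The means were 6.65 ± 0.33, 6.70 ± 0.29 and 6.82 ± 0.12 (SD, n = 4, 4 and 5), with CANA minus HFD at 0.06 (SE 0.16, adjusted p = 0.974) and CR minus HFD at 0.17 (SE 0.15, interval -0.15 to 0.49, adjusted p = 0.999).

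Over the whole set, 4 of 9 transporters were above 0 and 5 below in CANA minus HFD, with a median difference of -0.07, where 50% of all genes were above 0 and the median was 0.00. In CR minus HFD 6 of 9 were above 0 (median 0.05), against 50.5% of all genes, and in CANA minus CR 3 of 9 were (median -0.06), against 49.2%. The comparisons share arrays, so their values are not independent of each other.

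In the sets of serial numbers 1 to 8 and 9 to 14, some differences had opposite signs. In CR minus HFD, 3 of 9 transporters (Slc2a2, Slc2a5 and Slc2a9) had arrays of the groups fully apart in opposite directions in the sets, as had 3.34% of all genes. In CANA minus HFD this was so for 1 of 9 (Slc5a2), against 5.52%, and in CANA minus CR for 1 of 9 (Slc2a5), against 3.17%. The sets were formed after earlier results of these data had been seen.

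Across the 13 arrays some of the transporters varied together while their group means stayed close. Of 36 pairs, 2 had a correlation that passed a permutation test after Benjamini-Hochberg adjustment, both with Slc2a2. The share of all gene pairs that reach such an r on these arrays was not computed. Genes outside the set came closer to Slc2a2, such as Mpzl2 (r of 0.885), so the pairs are not shown to be particular to transporters. Slc2a2 and Slc2a5 were correlated with r = 0.792 by Pearson (13 arrays, permutation p = 0.0015, two-sided, adjusted p = 0.0268) and a Spearman rho of 0.841 (permutation p = 0.0006, adjusted p = 0.0205). Without the 2 arrays farthest from the median of Slc2a2 r was 0.759, around the group means it was 0.789, and within serial numbers 1 to 8 and 9 to 14 it was 0.884 and 0.901. Slc2a2 and Slc2a9 had an r of 0.796 (13 arrays, permutation p = 0.0011, adjusted p = 0.0268) and a rho of 0.736 (permutation p = 0.0055, adjusted p = 0.0999), so the rank correlation did not pass. That r was 0.728 without the 2 farthest arrays, 0.811 around the group means, and 0.832 and 0.775 in the serial-number sets. The pair of Slc2a5 and Slc2a9 had an r of 0.542 (permutation p = 0.055, adjusted p = 0.501). Slc2a8 ran the other way against Slc2a2 with an r of -0.540 (permutation p = 0.058, adjusted p = 0.501), which did not pass. Arrays of high and low Slc2a2 occurred in the HFD group itself, where replicates 1 and 2 were low and 3 and 4 high in Slc2a2, Slc2a5 and Slc2a9 alike.

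**Figure D4:**
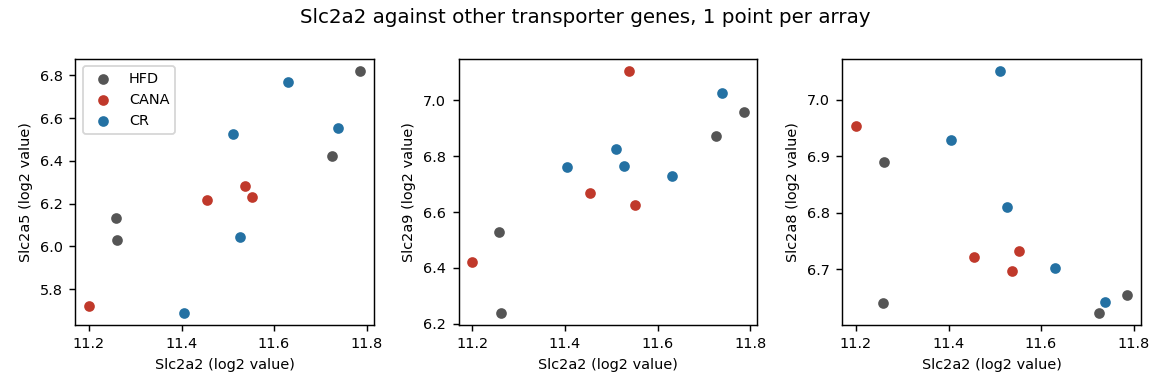
Log2 values of Slc2a5, Slc2a9 and Slc2a8 (y axes) against Slc2a2 (x axes), 1 point per array coloured by group. Slc2a5 and Slc2a9 rise with Slc2a2 (r of 0.792 and 0.796), and Slc2a8 tends to be lower where Slc2a2 is higher (r of -0.540, which did not pass).

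The sequence before the start of the pair whose Pearson and rank correlations both passed is shown so that their promoters can be compared. It is given 5′ to 3′ on the gene's strand, as the 250 bases before the RefSeq start in GRCm38.p6, with CG dinucleotides in capitals. RefSeq promoters were at hand for 6 of the 9 transporters. The Slc2a2 window is chr3:28697653-28697902 and the Slc2a5 window is chr4:150119094-150119343, both on the plus strand.
Slc2a2: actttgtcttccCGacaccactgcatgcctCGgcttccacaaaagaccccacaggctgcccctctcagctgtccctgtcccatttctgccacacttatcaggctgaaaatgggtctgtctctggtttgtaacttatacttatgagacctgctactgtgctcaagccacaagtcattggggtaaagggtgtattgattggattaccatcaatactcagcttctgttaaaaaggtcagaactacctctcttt
Slc2a5: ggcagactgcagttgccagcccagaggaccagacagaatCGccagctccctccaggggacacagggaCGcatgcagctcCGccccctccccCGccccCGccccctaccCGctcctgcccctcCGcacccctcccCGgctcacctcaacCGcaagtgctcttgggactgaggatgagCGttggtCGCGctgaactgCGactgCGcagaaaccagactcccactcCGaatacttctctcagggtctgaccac

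The windows differ in composition. That of Slc2a2 holds 2 CG dinucleotides and 47.2% G and C, and that of Slc2a5 holds 15 and 66.4%, where the median of 32851 such windows is 6 and 52.4%. On both strands, neither window holds the hepatocyte nuclear factor 1 half-site GTTAAT (in 6.43% of all windows), the forkhead motif TGTTTAC (3.17%), the E-box CACGTG (6.02%), the D-box TTATGNAA (3.07%) or the TATA box TATAAA (12.4%). These letters are absent from these windows, which says nothing of the factors.

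The genes most like each transporter over the 13 arrays were searched among 12363 genes above the dim limit, predicted and unnamed loci left out, for the 7 transporters that were above it. They are the extremes of many correlations, so their r values are a description. For Slc2a2 they were Mpzl2 (r of 0.885), Slc39a9 (0.872) and Aldh6a1, an enzyme of valine breakdown (0.867). For Slc2a5 they were the Wnt receptor gene Fzd4 (0.863), the tubulin gene Tubb6 (0.840) and Dbp, a transcription factor of circadian output (0.826). For Slc2a9 they were Aqp9, the glycerol channel of hepatocytes (0.910), Fam169b (0.909) and Lrit1 (0.900). For Slc2a1 they were the nuclear receptor corepressor gene Nrip1 (0.936), Irf2bp2 (0.871) and the orphan nuclear receptor gene Esrrg (0.833). For Slc5a2 they were Tbx3 (0.905), Paxip1 (0.877) and Rad51d (0.873). For Slc2a4 they were Ust (0.849), Cox17 (0.839) and Crebrf (0.808), and for Slc2a8 Mir3473c (0.857), Tex46 (0.837) and Hlx (0.825).

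Other genes of sugar transport and of the steps around it were read from the same fit, and none passed in any comparison. Of 14 measured genes among 16 other SLC2A and SLC5A transporters, 5 were above the dim limit, and in CANA minus HFD 7 were above and 7 below 0 (median -0.01). The lowest p belonged to Slc5a4b, which had a difference of 0.28 (adjusted p = 0.637), and to Slc2a6 at -0.30 (adjusted p = 0.661), both from near the dim limit. Among 11 measured genes that phosphorylate glucose or release it from glucose 6-phosphate, 4 were above 0 (median -0.02). G6pc, the glucose-6-phosphatase that makes the glucose hepatocytes export, was at 11.84 ± 0.33 in CANA and 11.21 ± 0.21 in HFD (difference 0.63, SE 0.16, adjusted p = 0.229). Gckr, the glucokinase regulator, was at -0.30 (adjusted p = 0.485).

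Of 6 listed fructose genes that go with Slc2a5, only 3 were measured. All 3 were below 0 in CANA minus HFD (median -0.30, against 0.00 over all genes), where 50% of all genes were above 0. Khk, the fructose kinase, was at -0.49 (SE 0.15, adjusted p = 0.394). In CR minus HFD Khk was at 0.04 (SE 0.14, adjusted p = 0.999). Of 10 measured transcription factors linked to the Slc2a2 promoter, 7 were below 0 in CANA minus HFD (median -0.30) and 5 in CR minus HFD (median 0.00). Srebf1 was at -0.85 (SE 0.19, adjusted p = 0.157), and the forkhead factor genes Foxa1 and Foxa2 at -0.37 (adjusted p = 0.512) and -0.36 (adjusted p = 0.584), while Slc2a2 itself was at -0.07. Txnip, which promotes removal of GLUT1 and GLUT4 from the cell surface, was at 10.17 ± 0.55 in CANA and 9.37 ± 0.55 in HFD (difference 0.80, SE 0.26, adjusted p = 0.424).

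Of 10 measured genes of GLUT4 vesicle traffic, 4 were above 0 in CANA minus HFD (median -0.02), and the lowest p in that comparison was that of the fusion protein gene Stxbp3 (0.13, adjusted p = 0.810). Of 9 urate genes, 5 were above 0 (median 0.07). Slc17a3, an organic anion transporter gene, was at 8.25 ± 0.05 in CANA and 8.66 ± 0.07 in HFD (difference -0.40, SE 0.11, adjusted p = 0.300). Xdh, the enzyme that makes urate, was at -0.29 (adjusted p = 0.492), and Slc2a9 stood at 0.06 beside them.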

How the data were processed

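Liver RNA was labelled with biotin by the Affymetrix WT Plus protocol, per the labels' protocols. The deposited log2 values came from RMA (robust multi-array averaging), and Affymetrix Expression Console was used, per the submitters' processing notes, which give no versions. No scanner files or detection p-values were used here. The table held 41345 probe sets on 13 arrays, with array medians of 4.07 to 4.13. Probe sets with exactly 1 gene symbol (23521) were named from the platform annotation, and 23328 of these matched RefSeq by Entrez identifier. Another 1814 carried several symbols and 16010 carried none, and these were not used, so some genes of the lists were not analysed here. Per gene the probe set with the highest mean was taken, which gave 22180 genes, 1082 of them with several probe sets. The dim limit of 3.95 is the 40th percentile of gene means.

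All 13 arrays entered 1 limma 3.58.1 fit in R 4.3.3 with no covariates (residual degrees of freedom 10, prior 6.46). A gene passed at a Benjamini-Hochberg adjusted p under 0.05 over all genes, two-sided. Correlations used 100000 permutations. The pipeline was also run on simulated data, drawn with independent noise per gene. The outcome is not given here, and no result rests on it. The members, gene lists and serial-number sets were chosen with earlier results of these data known. All 9 members were named, with genes from the up to 3 of smallest p in CANA against HFD in each list (none passed), and the 3 most correlated genes of each member above the dim limit. Alternatives covered the dim filter, normalization, centring, variance models, weights, probe sets, blocks, serial numbers and leaving out each array, and the interaction of group with serial-number set was added after seeing the data.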

Additional observations from a re-analysis of the deposited data

Results flagged for a closer look

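In 4 of 27 groups tested, 1 array stood apart from the rest by Dixon's criterion, which flags about 1 in 20 groups by chance. The share flagged over all genes was not computed, so the count is not shown to be particular to transporters. CANA replicate 1 was flagged for both Slc2a5 and Slc2a8. Slc5a2 read 3.99 in CR replicate 3 against 4.41 to 4.52 in the other CR arrays. Slc2a5 read 5.72 in CANA replicate 1 against 6.22 to 6.28 in the rest of the group. Slc2a8 read 6.95 in CANA replicate 1 against 6.70 to 6.73, and 6.89 in HFD replicate 1 against 6.62 to 6.66. These last arrays carry serial numbers 1 and 2.

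For 5 member differences, the arrays of both groups were apart in opposite directions in the sets of serial numbers 1 to 8 and 9 to 14. The sets were chosen after earlier values of these data were seen, and each holds 2 or 3 arrays per group. In CR minus HFD this held for 3 of 9 transporters, Slc2a2, Slc2a5 and Slc2a9, against 3.34% of all genes, and Slc2a2 was correlated with each of the others over the arrays, so the 3 are not separate observations. Slc2a5 went from 0.53 to -0.76, a change of -1.29 (SE 0.27, limma interaction unadjusted p = 2.73e-04, adjusted p = 0.674). Slc2a2 went from 0.37 to -0.29, a change of -0.66 (SE 0.20, adjusted p = 0.999), and Slc2a9 from 0.475 to -0.15, a change of -0.63 (SE 0.26, adjusted p = 0.999). In CANA minus CR this held for 1 of 9, against 3.17% of all genes: Slc2a5 changed by 0.97 (SE 0.27, adjusted p = 0.938). In CANA minus HFD it held for 1 of 9, against 5.52%: Slc5a2 changed by -0.53 (SE 0.23, adjusted p = 0.953). None of the 5 passed after adjustment, and the cause was not tested.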

How the results depend on the processing

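No transporter passed in any of the 28 alternatives, where the lowest adjusted p was 0.466. Of 723 member differences recomputed, 689 kept their direction and 34 turned. With the replicate block, Slc2a5 in CR minus HFD was 0.0321 and Slc2a3 in CANA minus CR -0.0475. Within serial numbers 1 to 8, Slc5a2 and Slc2a2 in CANA minus HFD were 0.16 and 0.11, Slc2a5 in CR minus HFD 0.53, and Slc5a1, Slc5a2, Slc2a3 and Slc2a8 in CANA minus CR 0.0161, 0.0642, -0.0360 and 0.0265. Within 9 to 14, Slc2a9 in CANA minus HFD was -0.27, Slc2a2 and Slc2a9 in CR minus HFD -0.29 and -0.15, and Slc2a1, Slc2a2, Slc2a4 and Slc2a5 in CANA minus CR -0.14, 0.0372, -0.0779 and 0.36. Leaving out 1 array gave -0.15 to 0.0210 for Slc2a2 and -0.0812 to 0.16 for Slc2a9 in CANA minus HFD, -0.0285 to 0.15 for Slc2a2 and -0.15 to 0.12 for Slc2a5 in CR minus HFD, and -0.17 to 0.0642, -0.0475 to 0.0547, -0.0084 to 0.18 and -0.11 to 0.0048 for Slc5a1, Slc2a3, Slc2a4 and Slc2a8 in CANA minus CR.

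The count of all genes called was less steady. For CANA against HFD it was 12, and 22 without dim genes, 21 with a variance trend, 3 over all probe sets, 20 with the replicate block, 28 with the serial number and 26 with its set as a term, 2 and 0 within the sets, 42 at an adjusted p under 0.10, and 1 to 35 without 1 array. For CR against HFD it was 0, 1 with the replicate block, the serial number or its set, and 0 without any 1 array. For CANA against CR it was 16, and 1 over all probe sets, 8 with the replicate block, 25 with the serial number, 5 and 0 within the sets, 29 at an adjusted p under 0.10, and 3 to 20 without 1 array. The cause of these shifts was not tested. Of 12 pairs of arrays with the same number, 4 correlated above 0.1 (range -0.09 to 0.21), so the numbers were not taken as pairs. In 14 of 24 checks an array correlated best with its own number, which is a hint from the data, not from the design, that equal numbers share something. No chance rate was computed for that count. Equal numbers need not be the right partners for CR, whose replicate 5 follows HFD replicate 4 in serial number. The values below 0 were those of CR replicate 3 with CANA replicate 3 (-0.07) and HFD replicate 3 (-0.09). CR replicate 4, next in serial order, was at 0.07 with CANA replicate 3 and 0.08 with HFD replicate 3. CR replicate 5 was at 0.06 with CANA replicate 4 and 0.13 with HFD replicate 4. The replicate block used equal numbers, and a block by serial order was not tested. With the replicate block no transporter passed either, and Slc2a8 in CANA minus HFD was 0.07 (adjusted p = 0.928).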
